A study of Mus musculus with 6 samples.

Results

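The genes described here encode the enzymes that cut, protect and crosslink the extracellular matrix of mammary tumors. They were taken by symbol alone from the deposited tables: 23 numbered matrix metalloproteinase genes (Mmp), 4 tissue inhibitors of metalloproteinases (Timp), 19 numbered Adamts genes, and 5 lysyl oxidases (Lox and Loxl1 through Loxl4). These 51 genes were all the matches among the 55385 genes listed per library, and the rule uses symbols only.

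MMPs are zinc-dependent proteases made as inactive precursors, and between them they cleave collagens, basement membrane and elastin, while TIMPs block their active sites. ADAMTS enzymes are secreted relatives that trim procollagens or cleave proteoglycans and other matrix glycoproteins. Lysyl oxidases oxidize lysines in collagen and elastin so that the fibers crosslink, a process that stiffens fibrotic stroma. In mammary tumors such genes are known to be transcribed by carcinoma cells and by fibroblasts and macrophages of the stroma.

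RNA was sequenced from mammary tumors of female NeuT/ATTAC mice in 2 groups, control and DMHCA, with 3 libraries in each. Mice of both groups carried a constitutively active rat ErbB2[V664E] transgene driven by MMTV, which directs it to mammary epithelium, and an FKBPv-caspase-8 fusion under the FABP4 promoter of fat cells. Both groups are described in the paper as NeuT/ATTAC+AP mice, which were injected from 6 weeks of age with 0.4 mg/kg AP20187, a dimerizer of the fusion protein that removes part of the mammary fat and leaves fibrotic tissue in its place. The treatment label of the control libraries names AP20187 and vehicle together and can also be read as vehicle alone. The DMHCA group was fed DMHCA, an agonist of the liver X receptors (LXR), at 0.05% of the diet from 8 weeks of age, a dose of about 100 mg/kg. The labels name the tissue as mammary gland fibrosis, and the age at which each tumor was taken is not given in the sources used here.

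The expected counts of a library summed to between 46358654 and 63420620. DMHCA libraries 1 and 3 were nearly identical: their biological coefficient of variation was 0.0326, against 0.374 to 0.572 for the other pairs within a group, so they were summed and counted as 1 sample (DMHCA 1 and 3), which left 3 control and 2 DMHCA samples. The mice are described as separate animals, and p-values measure only the spread between these samples. Luminal epithelial markers (Epcam, Krt8, Krt18, Krt19 and Erbb2) summed to 3057 to 3914 TPM (transcript molecules relative to all in the library, a level per length) in control and 4569 to 4730 TPM in DMHCA samples, so luminal epithelial RNA was present in every sample. Markers of other tissues differed among the samples as well. All 5 adipocyte markers had unadjusted p-values under 0.05 and were lower with DMHCA (a summed 123 to 914 TPM in control against 68.7 to 68.8 TPM in DMHCA samples). Control 1 held 8780 TPM of salivary gland genes, against 15.1 to 126 TPM in the other samples, and control 3 held 1589 TPM of lymphoid tissue genes, against 3.25 to 161 TPM. The part of these tissues in the results below was not tested.

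No matrix protease, inhibitor or crosslinker passed the test between DMHCA and control tumors. edgeR's quasi-likelihood test with Benjamini-Hochberg adjustment called 0 of the 19427 genes tested (0%) at an adjusted p under 0.05, and no adjusted p lay below 0.644. An unadjusted p under 0.05 was reached by 1478 genes, of which the genes higher with DMHCA made up 3.53% of all genes tested and the lower ones 4.08%. Among the 44 members with enough reads to be tested, 0 were higher and 3 were lower (6.82%) at that level. These were Mmp3, Timp4 and Adamts14. Timp4 passed the filter on low counts through the controls alone, since no DMHCA sample reached its minimum. Of the 43 members that reached it in samples of both groups, 2 (4.65%) were lower at that level, where 2.93% of all such genes were. DESeq2 on the same 5 samples called 1 member, Mmp3, lower at an adjusted p under 0.05, where 0.967% of its genes were called lower and 0.249% higher. On the 6 libraries taken as separate samples, it called Mmp3, Timp4 and Adamts14 lower (background 2.68%) and 0 members higher (background 1.29%). For a single gene, an exact two-sided permutation test of 3 against 2 samples cannot give a p below 0.1.

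Log2 fold changes (DMHCA over control) of the members tested had a median of −0.20, against −0.03 over all genes, and 25 of the 44 (56.8%) were below 0, as were 52% of all genes. The families differed in this description. The median was −0.58 over the 17 MMP genes tested, 13 of them below 0, and −0.60 over the 4 TIMP genes, 3 of them below 0. It was 0.11 over 18 ADAMTS genes, 7 below 0, and 0.09 over the 5 lysyl oxidases, 2 below 0. In 5 members (11.4%), Timp4 included, every DMHCA sample lay below every control sample in normalized counts (the others were Mmp3, Mmp10, Timp1 and Adamts14), a share close to the 12.2% of all genes that did so. The opposite pattern was found in 0 members, and in 13.8% of all genes. On the TPM scale the lower members without overlap were 3 (Mmp3, Mmp11 and Adamts14), or 6.82% of the members against 6.97% of all genes. The higher ones on that scale were also 3 (Mmp17, Timp3 and Loxl1), against 20.3% of all genes.

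**Figure D1:**
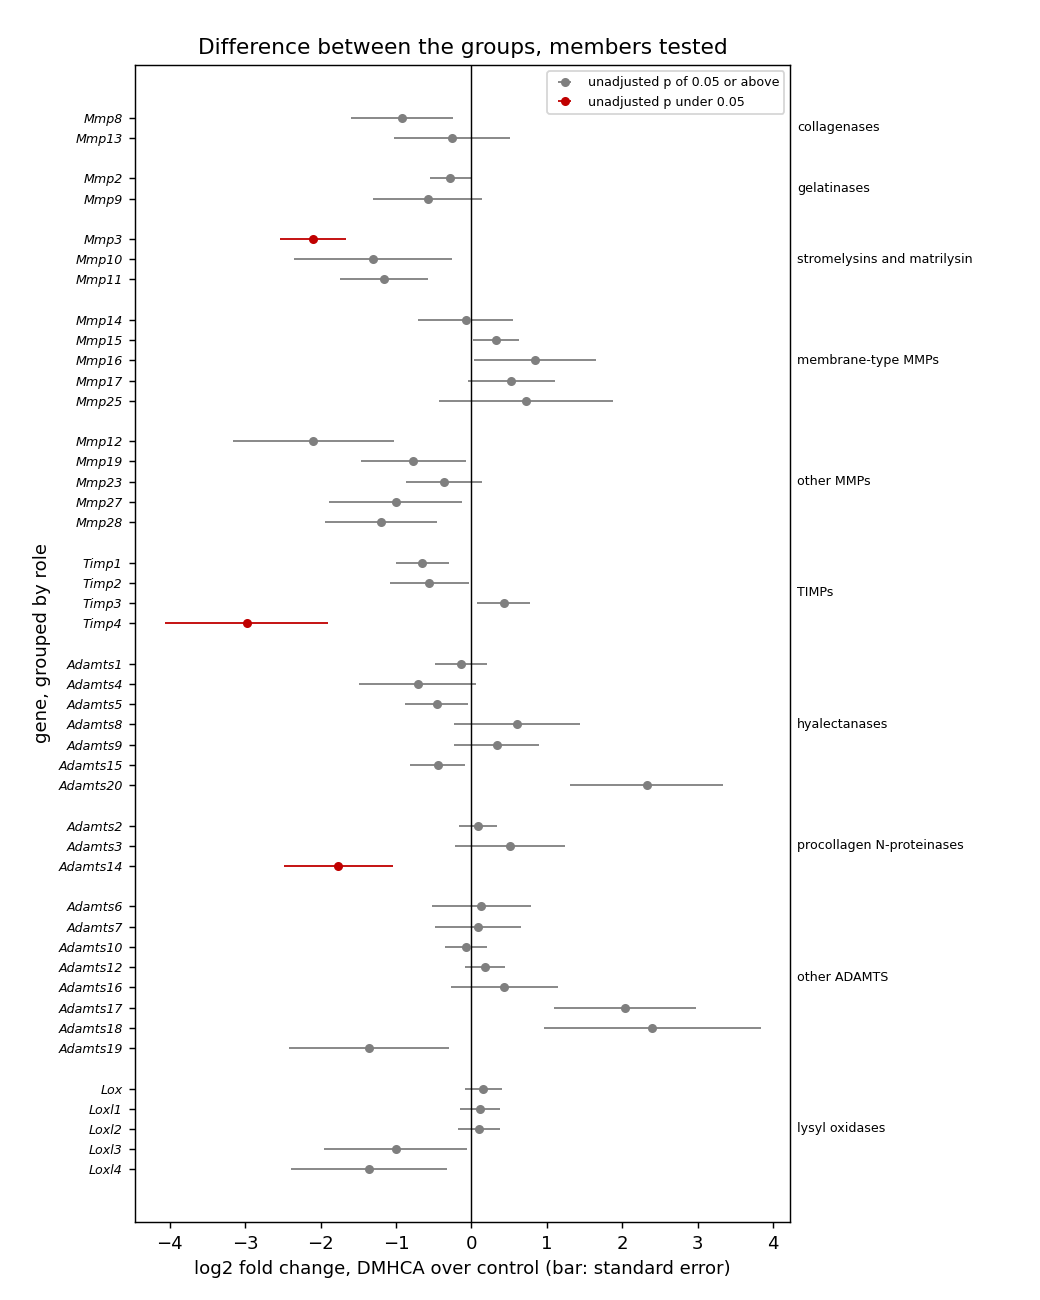
Log2 fold change (DMHCA over control, x axis) of the 44 members tested, in rows grouped by role; points are edgeR estimates, bars are standard errors and red marks an unadjusted p under 0.05. Only Mmp3, Timp4 and Adamts14 are red, all to the left of 0, and the stromelysins and the MMPs named other all have points left of 0 while 4 of the 5 membrane-type MMPs lie to the right.

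The clearest difference among the proteases was in Mmp3, which encodes stromelysin-1, a protease of proteoglycans and basement membrane that also activates other MMP precursors. Mmp3 (ENSMUSG00000043613, GRCm38 chr9:7445822-7455975, plus strand) had normalized counts of 2265, 2599 and 4854 in control 1, 2 and 3, and of 611 in DMHCA 2 and 900.2 in DMHCA 1 and 3. All control samples lay above both DMHCA samples, with no overlap. The mean was 3239 ± 1408 (SD, n = 3) normalized counts in control and 755 ± 205 (SD, n = 2) in DMHCA samples. The fitted log2 fold change was −2.10 (SE 0.44), or 4.28-fold lower with DMHCA, with an unadjusted p of 0.00239 and an adjusted p of 0.644 by edgeR. With any single library left out the log2 fold change lay between −2.31 and −1.69. With a control left out the unadjusted edgeR p lay between 0.00241 and 0.00412. Leaving out DMHCA library 1 or 3 removed no sample, because its nearly identical partner stayed. Adjusted p-values for Mmp3 ran from 0.000206 (DESeq2 on 6 libraries) to 0.959 (edgeR without DMHCA library 2), and DESeq2 on the 5 samples gave 0.00776. Mmp3 is made by fibroblasts, among other cells. The 8 fibroblast markers, none of them at 0, summed to 550, 232 and 943 TPM in control 1, 2 and 3 and to 456 and 401 TPM in DMHCA 2 and in DMHCA 1 and 3. In normalized counts 7 of the 8 overlapped between groups and Fap was lower without overlap, though in TPM it overlapped too (3.93 to 11.6 TPM in control, 5.06 TPM in DMHCA 2). Pdgfrb and Col1a1 had log2 fold changes above 0 (0.35 and 0.29) and the other 6 below 0. The part of fibroblasts in the Mmp3 difference was not tested. In bulk tumor RNA, fewer cells of a type and less RNA per cell cannot be told apart.

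Mmp3 belongs to a cluster of 10 MMP genes on chromosome 9 (GRCm38 chr9:7272514-7699585, 427 kb). The 6 of them that could be tested all had log2 fold changes below 0 (Mmp3, Mmp8, Mmp10, Mmp12, Mmp13 and Mmp27), with a median of −1.16, where 52% of all genes were below 0. Control 3 was the highest sample for Mmp3, Mmp8, Mmp12 and Mmp27, control 1 for Mmp10 and DMHCA 2 for Mmp13. Without control 3 the value was −1.69 for Mmp3 and −0.34 for Mmp12. Mmp27 had 34.6, 18.2 and 115 normalized counts in control 1, 2 and 3, 24.3 in DMHCA 2 and 31.3 in DMHCA 1 and 3. At an unadjusted p under 0.05, 1 of the 6 was lower, against 4.08% of all genes, and that was Mmp3, through which the cluster was reached. The other 4 (Mmp1a, Mmp1b, Mmp7 and Mmp20) were at or under 0.33 TPM in every sample. Promoter windows from RefSeq (GRCm38.p6, 250 bases before to 50 after a start site) were found for 33 of the 51 members, and all 10 cluster genes were among them. The AP-1 motif TGANTCA, the letters bound by Fos and Jun proteins, occurred in 8 of the 10 cluster genes, in 0 of the 23 matched members elsewhere, and in 7.81% of all 32851 promoter windows, searched on both strands. TATAAA occurred in 9 of the 10 cluster genes, in 11 of the 33 matched members and in 13.6% of all windows. The windows of Mmp3, Mmp12, Mmp13 and Mmp10 are shown because these are the cluster genes that were tested and hold both motifs, and that of Mmp7 because it holds both with almost no reads. Each runs 5′ to 3′ from 110 bases before the start site to 10 bases after it, on the plus strand, with TGANTCA and TATAAA matches in capitals.
Mmp3 (chr9:7445712-7445831): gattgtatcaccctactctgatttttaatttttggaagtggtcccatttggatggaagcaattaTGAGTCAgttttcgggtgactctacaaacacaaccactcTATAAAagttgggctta
Mmp12 (chr9:7347264-7347383): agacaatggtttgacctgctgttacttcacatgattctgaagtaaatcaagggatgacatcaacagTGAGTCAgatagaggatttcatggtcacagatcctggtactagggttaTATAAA
Mmp13 (chr9:7272404-7272523): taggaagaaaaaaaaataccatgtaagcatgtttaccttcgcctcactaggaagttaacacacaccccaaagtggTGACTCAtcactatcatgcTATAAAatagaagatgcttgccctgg
Mmp10 (chr9:7502232-7502351): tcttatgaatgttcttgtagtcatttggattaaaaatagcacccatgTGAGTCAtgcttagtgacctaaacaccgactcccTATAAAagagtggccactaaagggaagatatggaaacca
Mmp7 (chr9:7691980-7692099): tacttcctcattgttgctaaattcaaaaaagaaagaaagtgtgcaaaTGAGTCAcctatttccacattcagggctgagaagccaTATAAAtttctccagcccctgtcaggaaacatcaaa

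The AP-1 letters of these windows lie between 95 and 29 bases before the start site over the 8 genes that hold them. The TATAAA match of Mmp12 lies just after the annotated start rather than before it, and a further RefSeq start of Mmp12 holds neither motif. Direct repeats of AGGTCA spaced by 4 bases, the arrangement bound by LXR with its partner RXR, occurred in 0 of the 33 matched members and in 0.0152% of all windows, so exact letters of this length are rare in windows of this size. A single AGGTCA occurred in 4 of the 10 cluster genes (Mmp1a, Mmp1b, Mmp10 and Mmp12), in 0 of the 23 matched members elsewhere and in 16.3% of all windows.

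**Figure D2:**
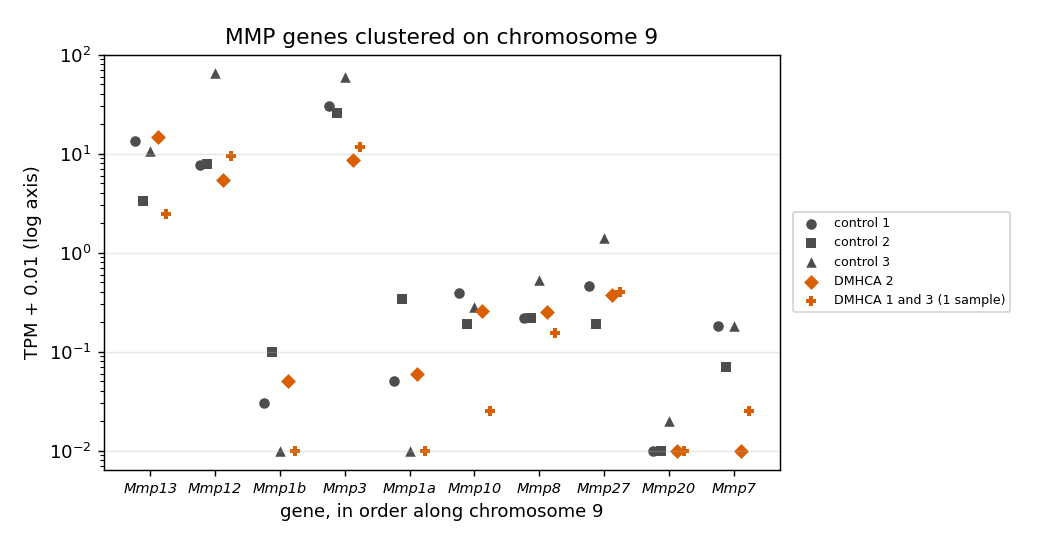
TPM + 0.01 (log y axis) of the 10 MMP genes of the chromosome 9 cluster, in order along the chromosome (x axis), with a point for each of the 5 samples. All control points of Mmp3 sit above both DMHCA points, as do those of Mmp7 at 0.17 TPM or less, Mmp12 has 1 control point (control 3, 64.6 TPM) far above the other 4, and Mmp1a, Mmp1b, Mmp7 and Mmp20 lie near the floor.

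Mmp12, the macrophage elastase (ENSMUSG00000049723, chr9:7344381-7369499), had as large a fitted difference as Mmp3 but rested on a single control. Its normalized counts were 565, 789 and 5534 in control 1, 2 and 3, 355 in DMHCA 2 and 717 in DMHCA 1 and 3. Control 3 stood far above the rest, and the other samples overlapped. The log2 fold change was −2.10 (SE 1.07; unadjusted p 0.0928, adjusted p 0.646 by edgeR), and −0.34 without control 3. Macrophage markers (Adgre1, Csf1r, Cd68, Mrc1, Itgam, C1qa, C1qb and Mertk) summed to 592 to 734 TPM in control and 515 to 638 TPM in DMHCA samples, with control 3 highest, and none was at 0. Of these 8, 7 had log2 fold changes below 0 and Mrc1 was above it (0.32), with 0 at an unadjusted p under 0.05 by edgeR. In normalized counts C1qa and Itgam were lower without overlap, as were 12.2% of all genes. The part of macrophages in the Mmp12 values was not tested. Exons of Mmp12 overlap those of Mmp1b on the opposite strand, and whether counting used strand is not given in the sources used here. Exons of Mmp11, Timp3 and Adamts7 likewise overlap genes on the opposite strand (Chchd10, Syn3 and Tbc1d2b).

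Among the other stromelysins and collagenases, values were low or spread within groups. Mmp10 (stromelysin-2) had only 15 to 23 expected counts per control library, and 2, 14 and 0 in DMHCA libraries 1, 2 and 3. Its normalized counts of 26.6, 17.1 and 20.8 in control, 17.0 in DMHCA 2 and 1.20 in DMHCA 1 and 3 did not overlap between groups, but control 2 and DMHCA 2 were nearly equal. Mmp11 (stromelysin-3) had 746, 255 and 785 normalized counts in control 1, 2 and 3, 282 in DMHCA 2 and 251 in DMHCA 1 and 3. Controls 1 and 3 stood apart, whereas control 2 lay between the DMHCA samples (log2 fold change −1.16, SE 0.59, adjusted p 0.646 by edgeR). Mmp13, an interstitial collagenase, differed more between the DMHCA samples (1577 and 291 normalized counts) than between the group means, with control samples at 511 to 1523. These 3 genes were singled out after their values were seen. The neutrophil collagenase Mmp8 was at 0.15 to 0.52 TPM in every sample.

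The gelatinases, which digest denatured collagen and basement membrane collagen, overlapped between groups. Mmp2 had normalized counts of 5641, 6162 and 7846 in control 1, 2 and 3, 5899 in DMHCA 2 and 4897 in DMHCA 1 and 3. Both DMHCA samples lay at or below the middle of the control range (log2 fold change −0.28, SE 0.27, adjusted p 0.768 by edgeR). Mmp9 had 239, 97.9 and 381 normalized counts in control 1, 2 and 3, 225 in DMHCA 2 and 96.3 in DMHCA 1 and 3. The spread within each group was as large as the difference between them (log2 fold change −0.58, SE 0.72, adjusted p 0.820 by edgeR), and with a library left out the log2 fold change ran from −1.27 (without DMHCA library 2) to −0.08 (without control 3). Neutrophils are a known source of Mmp9, and their 10 markers summed to 461, 67.4 and 3208 TPM in control and 250 and 92.5 TPM in DMHCA samples. Lactotransferrin (Ltf), also a gland product, made up most of that sum in every sample but DMHCA 2. Without Ltf the sum was 53.8, 33.2 and 56.7 TPM in control, 215 TPM in DMHCA 2, where S100a8 alone gave 199 TPM, and 11.8 TPM in DMHCA 1 and 3. Without S100a8 as well, the groups did not overlap, at 28.6, 18.3 and 28.6 TPM in control and 16.5 and 6.80 TPM in DMHCA samples. S100a8, set aside after its values were seen, was the only tested marker above 0 (log2 fold change 1.94). S100a9 made up most of what was left, at 24.3, 14.2 and 21.8 TPM in control and 12.9 TPM in DMHCA 2. Csf3r overlapped between groups (log2 fold change −0.14). On the TPM scale 6.97% of all genes were lower without overlap. Of the 7 neutrophil markers tested, 1 of which (Mmp8) is itself a member, 6 had log2 fold changes below 0. Of these 6, Ltf and Retnlg had an unadjusted p under 0.05 by edgeR. Retnlg (9.71 normalized counts in DMHCA 2 and 6.02 in DMHCA 1 and 3) passed the filter on low counts through the controls alone. So did Camp (0 and 5.42). The defining neutrophil gene Ly6g was at 0 in control 1 and in every DMHCA library, and the part of neutrophils in the Mmp9 values was not tested.

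Membrane-type MMPs, which act at the cell surface, made up 24.5% of all MMP TPM in control 3 and 53.6% to 62.9% in the other samples. Mmp14, the activator of the Mmp2 precursor, had the highest mean level of all members at 75.9 TPM, with Mmp2 next at 67.3 TPM and Mmp15 at 53.2 TPM. Mmp14, Mmp15 and the gelatinase Mmp2 together made up 49.2% to 77.6% of all MMP TPM in control and 73.1% to 84.5% in DMHCA samples. Normalized counts of Mmp14 were 8954, 12914 and 5510 in control 1, 2 and 3, 13893 in DMHCA 2 and 3406 in DMHCA 1 and 3. The DMHCA samples thus held both the highest and the lowest value, and the log2 fold change of −0.08 (SE 0.63, adjusted p 0.976 by edgeR) was 0.26 without control 2 and −1.38 without DMHCA library 2 (unadjusted p 0.0585). The other 4 membrane-type genes tested (Mmp15, Mmp16, Mmp17 and Mmp25) had log2 fold changes of 0.32 to 0.84, with 0 past an unadjusted p of 0.05, and the smallest adjusted p of the group was 0.765 by edgeR. Of the remaining MMPs, Mmp19, Mmp23, Mmp27 and Mmp28 had log2 fold changes of −1.20 to −0.37, and Mmp20, Mmp21 and Mmp24 were at or under 0.03 TPM.

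**Figure D3:**
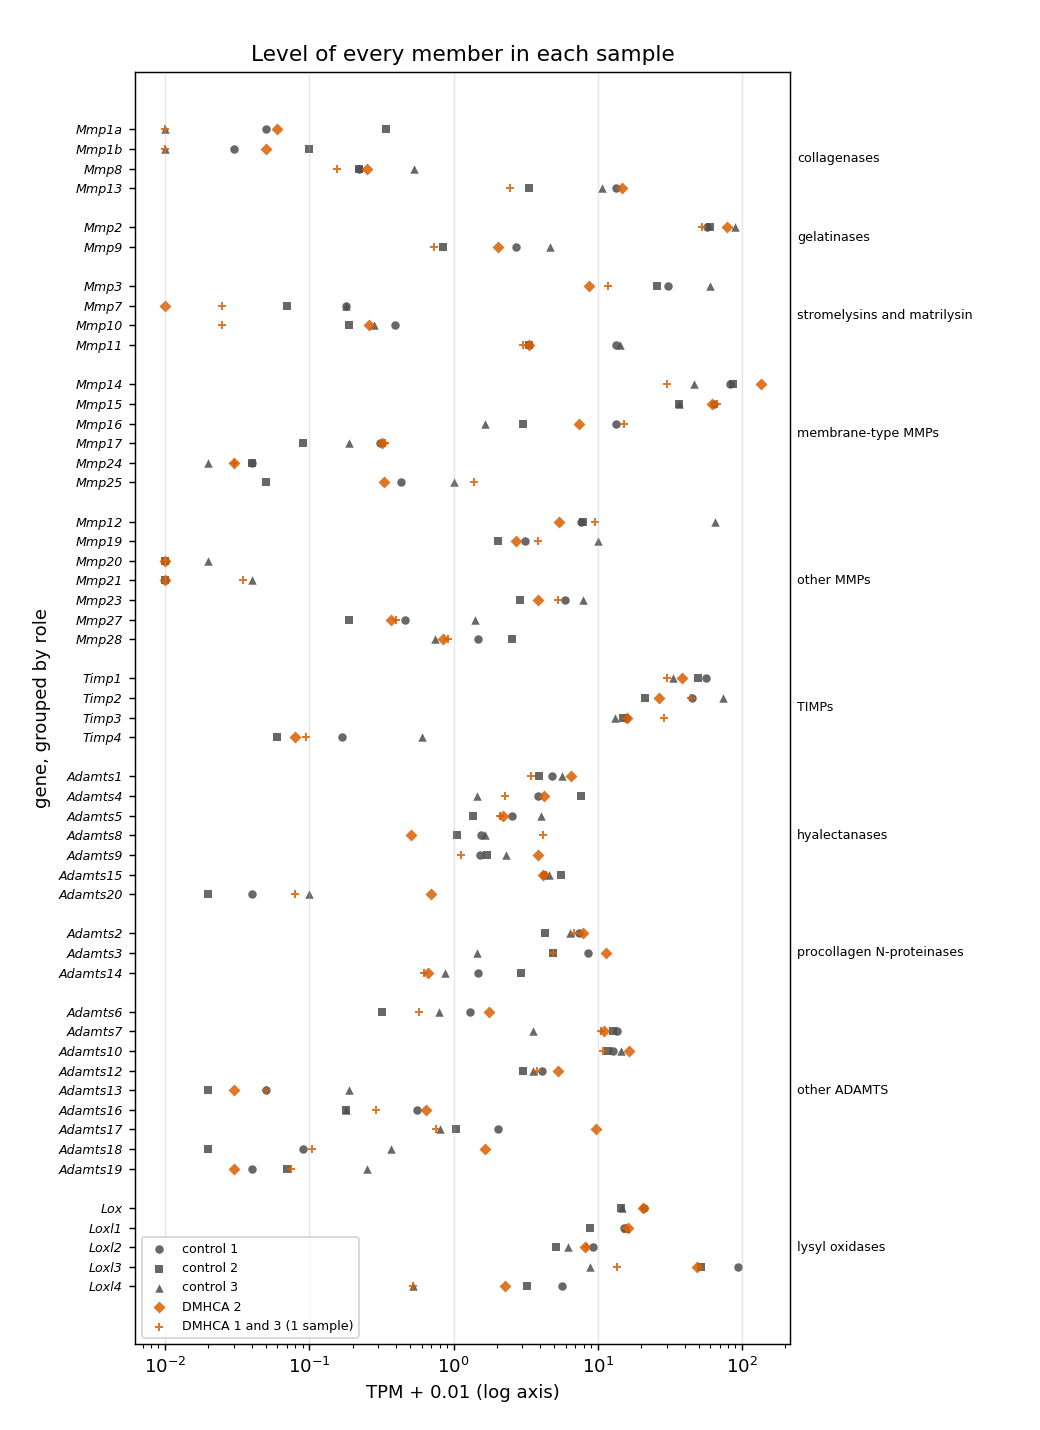
TPM + 0.01 (log x axis) of all 51 members, in rows grouped by role, with a point for each of the 5 samples. Mmp14, Mmp2, Mmp15, Loxl3, Timp1 and Timp2 lie toward the right, the 7 members that were not tested lie at or under 0.33 TPM, and for most genes the control and DMHCA points are interleaved.

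The inhibitors had log2 fold changes of both signs. Timp1, an inducible inhibitor of most soluble MMPs (chrX:20870166-20874735), had normalized counts of 1733, 2095 and 1130 in control 1, 2 and 3, 1125 in DMHCA 2 and 979.7 in DMHCA 1 and 3. No values overlapped, but control 3 and DMHCA 2 differed by less than 5 counts (log2 fold change −0.65, SE 0.35, adjusted p 0.653 by edgeR), and on the TPM scale the groups overlapped (33.1 to 55.9 against 30.4 and 38.1 TPM). Without control 3 the log2 fold change of Timp1 was −0.87 (unadjusted p 0.0325 by edgeR), and without control 2 it was −0.44 (unadjusted p 0.258 by edgeR). Timp2, which also takes part in activation of Mmp2 by Mmp14, had 6692, 3689 and 11445 normalized counts in control 1, 2 and 3, 3456 in DMHCA 2 and 6426 in DMHCA 1 and 3. Control 3 was highest and DMHCA 2 lowest, with the others between (log2 fold change −0.56, SE 0.52). Without control 3 the log2 fold change was −0.07, without DMHCA library 2 it was −0.13, and without control 2 it was −0.88.

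Timp3, which binds to the matrix and also inhibits ADAMTS enzymes, was the single inhibitor with a log2 fold change above 0, at 0.43 (SE 0.35, adjusted p 0.738 by edgeR). Its normalized counts were 3264, 4195 and 2909 in control 1, 2 and 3, 3147 in DMHCA 2 and 6166 in DMHCA 1 and 3. The last of these was above all others, while DMHCA 2 lay within the controls. Without DMHCA library 2 the log2 fold change was 0.88, with an unadjusted p of 0.0498. In TPM the groups did not overlap, at 13.2 to 15.6 TPM in control and 16.0 and 28.7 TPM in DMHCA samples.

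Timp4, an inhibitor that is abundant in fat and heart (ENSMUSG00000030317, chr6:115241892-115252205), was the least abundant inhibitor, with a mean of 0.191 TPM. It had 34, 14 and 81 expected counts in control 1, 2 and 3, and 7, 2 and 10 in DMHCA libraries 1, 2 and 3. As normalized counts these were 39.3, 15.9 and 105 in control, 2.43 in DMHCA 2 and 10.2 in DMHCA 1 and 3. All controls were above both DMHCA samples, control 2 by the least. Because it entered the test through the controls alone, its fitted difference is given as a description: the log2 fold change was −2.98 (SE 1.08, unadjusted p 0.0303, adjusted p 0.644 by edgeR), and −2.02 without control 3 with an unadjusted p of 0.0633. DESeq2 on the 6 libraries gave an adjusted p of 0.0484, at one end of a range that reached 0.959 over the alternatives. In TPM the groups overlapped (0.05 to 0.59 TPM in control, 0.07 and 0.085 TPM in DMHCA samples), and exons of Timp4 overlap those of Syn2 on the opposite strand. The adipocyte markers named above moved the same way, with control 3 highest in both.

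Summed over the families, MMP RNA exceeded TIMP RNA in every sample. The ratio of summed MMP TPM to summed TIMP TPM was 2.54, 2.74 and 2.91 in control 1, 2 and 3, 4.03 in DMHCA 2 and 1.99 in DMHCA 1 and 3. The DMHCA samples lay on both sides of the controls. The order changed when Mmp14 and Timp2, the genes of each family with the highest mean TPM over the 5 samples, were both left out: the ratio was then 6.49 in control 3 and 2.30 to 3.51 in the other samples.

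**Figure D4:**
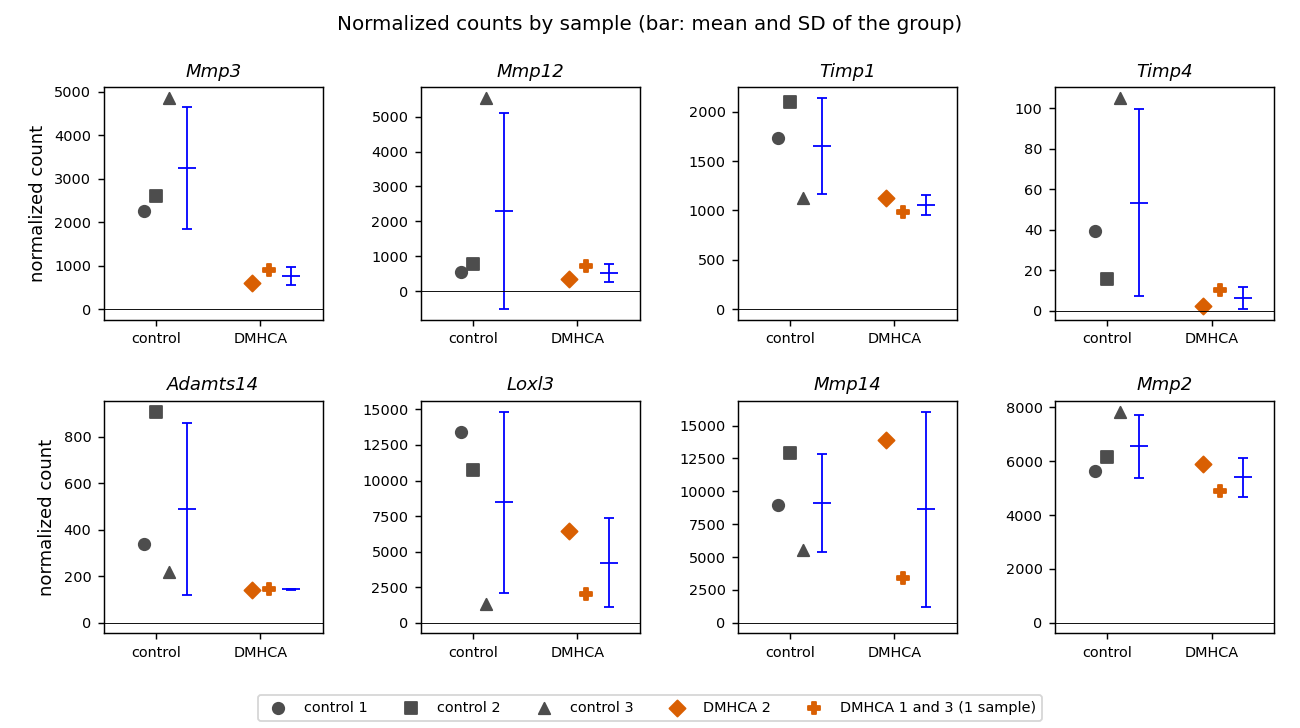
Normalized counts (y axis, linear) of 8 members in control and DMHCA samples (x axis); each symbol is a sample and the bar beside them is the group mean with its SD (n = 3 control, n = 2 DMHCA). Mmp3, Timp1, Timp4 and Adamts14 show no overlap, Mmp12 shows control 3 alone at 5534, and the DMHCA points of Mmp14 lie at both ends of its range.

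ADAMTS genes had log2 fold changes on both sides of 0. The procollagen N-proteinases, which remove the amino-terminal propeptide so that collagen can form fibrils, were not alike. Adamts14 (ENSMUSG00000059901, chr10:61197112-61273438) had normalized counts of 341, 908 and 217 in control 1, 2 and 3, 142 in DMHCA 2 and 146 in DMHCA 1 and 3. The DMHCA samples were close to each other and below every control, of which control 2 was far the highest. The log2 fold change was −1.76 (SE 0.72, unadjusted p 0.0458, adjusted p 0.644 by edgeR), or 3.39-fold lower with DMHCA. It was −1.96, −0.95 and −2.12 without control 1, 2 and 3, with unadjusted p-values of 0.0579, 0.119 and 0.0115 by edgeR. Without DMHCA library 2 it was −1.71. DESeq2 on the 6 libraries gave an adjusted p of 0.0427, and over the alternatives it reached 0.959. The more abundant procollagen N-proteinases Adamts2 and Adamts3, at mean levels of 6.59 and 6.23 TPM against 1.31 TPM for Adamts14, had log2 fold changes of 0.09 (SE 0.25) and 0.51 (SE 0.73).

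The most abundant ADAMTS genes were Adamts10, a fibrillin-binding member, and Adamts7, which cleaves cartilage oligomeric matrix protein (Comp), at mean levels of 13.3 and 10.3 TPM. Adamts10 had 1721, 2107 and 2071 normalized counts in control 1, 2 and 3, 2159 in DMHCA 2 and 1587 in DMHCA 1 and 3, so the DMHCA samples were again the highest and the lowest. Its log2 fold change was −0.07 (SE 0.27, adjusted p 0.952 by edgeR). Adamts7 had 2187, 2625 and 619 normalized counts in control 1, 2 and 3, 1861 in DMHCA 2 and 1974 in DMHCA 1 and 3. Control 3 stood apart below the rest, and the log2 fold change of 0.08 (SE 0.57) was −0.33 without it.

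The hyalectanases, which cleave aggrecan and versican, had a median log2 fold change of −0.14 over 7 genes with 0 past an unadjusted p of 0.05. Several ADAMTS genes, picked here for the size of the difference between the DMHCA samples, were high in a single DMHCA sample. Adamts17 had 308, 155 and 113 normalized counts in control 1, 2 and 3, 1444 in DMHCA 2 and 135 in DMHCA 1 and 3. Adamts18 had 3.41 to 90.8 in control, 381 in DMHCA 2 and 23.5 in DMHCA 1 and 3. Adamts20 had 5.69 to 31.1 in control, 136 in DMHCA 2 and 22.3 in DMHCA 1 and 3. In each of these DMHCA 2 was above all other samples, while DMHCA 1 and 3 lay within the controls. Adamts8 showed the opposite, with 75.3 normalized counts in DMHCA 2 and 682 in DMHCA 1 and 3 around controls of 221 to 283. The log2 fold changes of Adamts17 and Adamts20 (2.04 and 2.32) had unadjusted p-values of 0.0702 and 0.0573, and that of Adamts18 had 0.142, all by edgeR and each with an adjusted p of 0.644 or more.

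Normalized counts of all 5 lysyl oxidase genes overlapped between the groups. Lox, the founding crosslinking enzyme of the family, had normalized counts of 4267, 3855 and 3169 in control 1, 2 and 3, 3983 in DMHCA 2 and 4411 in DMHCA 1 and 3. The values overlapped, and the log2 fold change was 0.16 (SE 0.25, adjusted p 0.859 by edgeR). Loxl1, which acts on elastic fibers, and Loxl2, which crosslinks collagen IV, had log2 fold changes of 0.11 (SE 0.26) and 0.09 (SE 0.28). In TPM, Loxl1 did not overlap, at 8.83 to 15.6 TPM in control and 15.8 and 16.3 TPM in DMHCA samples.

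Loxl3 and Loxl4 varied widely inside both groups. Loxl3 (ENSMUSG00000000693, chr6:83034173-83052562), the most abundant of the family at a mean of 43.1 TPM, had 13400.5, 10751 and 1300.2 normalized counts in control 1, 2 and 3, 6439 in DMHCA 2 and 2022 in DMHCA 1 and 3. Loxl4 had 862, 669 and 90.8 in the controls, 341 in DMHCA 2 and 81.3 in DMHCA 1 and 3. In both genes control 3 lay with DMHCA 1 and 3 at the low end, controls 1 and 2 were highest, and DMHCA 2 lay between. The log2 fold changes were −1.0 (SE 0.95, adjusted p 0.763 by edgeR) for Loxl3 and −1.36 (SE 1.04, adjusted p 0.723) for Loxl4. Without control 3 they were −1.52 and −1.87, with unadjusted p-values of 0.0316 and 0.0376, and without control 1 they were −0.51 and −0.85. Without DMHCA library 2 they were −2.04 and −2.70, with unadjusted p-values of 0.164 and 0.0998. Among members with at least 100 counts in both of the nearly identical DMHCA libraries 1 and 3, Loxl3 differed most between them, at 2002 and 1356 expected counts. After normalization these differed 1.39-fold, against 1.20-fold or less in the others. Its exons overlap those of Htra2 on the opposite strand, which had 3085 and 3090 expected counts in the same libraries. Htra2 was at 1939 to 2005 normalized counts in control and 2831 and 3718 in DMHCA samples.

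**Figure D5:**
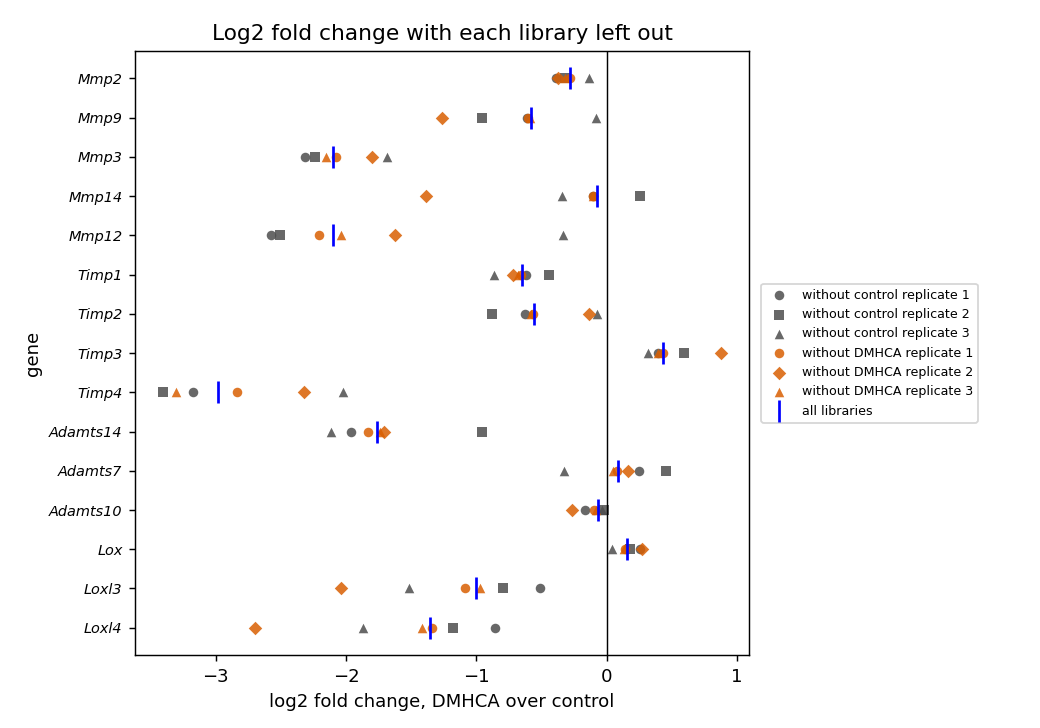
Log2 fold change (DMHCA over control, x axis) of 15 members (rows) with each library left out in turn (symbols) and with all libraries (blue line). The points of Mmp3 stay between −2.31 and −1.69, those of Timp4 and Adamts14 are on the left throughout, and Mmp12 moves to −0.34 without control 3.

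Wide variation inside the groups was found in a larger share of these genes than of all genes. The highest control was at least 3-fold above the lowest in 21 of the 44 members tested (47.7%), compared with 24.3% of all genes, and the median of that fold was 2.86 in members and 1.82 in all genes. The DMHCA samples differed at least 3-fold in 12 members (27.3%) and in 12.1% of all genes. The members with DMHCA samples this far apart were Mmp10, Mmp13, Mmp14, Mmp25, Timp4, Loxl3, Loxl4 and 5 ADAMTS genes (Adamts8, Adamts9, Adamts17, Adamts18 and Adamts20). Control 3 was the highest sample for 14 members (31.8%, against 27.4% of all genes) and DMHCA 2 for 13 (29.5%, against 22% of all genes). These shares are descriptions without a test, and they were not matched for count level. Some of the members counted rest on few reads in their lowest control (3, 5 and 5 expected counts for Adamts18, Adamts19 and Adamts20). Others, such as Loxl3 and Mmp12, do not (1002 and 489).

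The neighbors of these genes in matrix turnover gave a similar picture. Of 64 other genes listed for their known role, 61 were tested, and at an unadjusted p under 0.05 there were 0 higher and 2 lower (3.28%), a share below the 4.08% of all genes, while 0 passed the adjusted threshold. Their median log2 fold change was −0.19. Ctss, the macrophage protease cathepsin S, had 20209, 21582 and 28437 normalized counts in control 1, 2 and 3, 9676 in DMHCA 2 and 14586 in DMHCA 1 and 3, with no overlap and a log2 fold change of −0.95. Serpinb2, an inhibitor of plasminogen activators, had 24.2, 25.0 and 14.3 normalized counts in control, 3.64 in DMHCA 2 and 6.62 in DMHCA 1 and 3 (log2 fold change −1.98). Both DMHCA samples were below all controls in each. Serpinb2, at 0.05 to 0.29 TPM and 1 of the 2 lower genes counted above, passed the filter on low counts through the controls alone, like Timp4. Its fitted difference is given as a description. Of all genes that passed in that way, 34.6% were lower at an unadjusted p under 0.05 by edgeR. In the lower direction the groups did not overlap in 7 of the 61 (11.5%), Serpinb2 included, against 12.2% of all genes. In the higher direction they did not overlap in 3 (4.92%), against 13.8%. The 3 were Papln (log2 fold change 0.91), an ADAMTS-like glycoprotein, and the matrix components Fbn1 (0.64) and Bgn (0.55), with adjusted p-values of 0.644 to 0.648 by edgeR. In the list of cysteine cathepsins and cystatins, 7 of 8 genes were below 0, with a median of −0.50. Among 13 tested substrates, including the collagen genes Col1a1 (log2 fold change 0.29), Col1a2 (−0.05) and Col3a1 (−0.14), 6 were below 0 and the median was 0.09.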

How the data were processed

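RNA from tumors of 3 control and 3 DMHCA mice was sequenced as paired ends. According to the submitters' processing notes and the paper's methods, the authors checked reads with FastQC 0.11.9, trimmed adapters with cutadapt 2.9, and aligned and counted reads per gene with RSEM 1.3.1 on a Bowtie2 2.4.1 index of mm10 (GRCm38). The deposited expected counts are RSEM's estimates of reads per gene without normalization, and 19.6% to 23.5% of the genes' values in a library are not whole. The deposited TPM values were scaled by the authors for transcript length and depth. The authors also deposited FPKM values from RSEM, scaled for length and depth, which were not used. The RSEM settings, including strand, are not given in the sources used here.

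Expected counts were rounded. DMHCA libraries 1 and 3 were summed, and their TPM values averaged. Genes were kept by filterByExpr (minimum count 10, minimum total 15), normalized by TMM and compared with edgeR 4.0.16 (quasi-likelihood F-test, R 4.3.3) over 19427 genes, with Benjamini-Hochberg adjustment. Standard errors were obtained as the size of the log2 fold change over the root of F. Counts called normalized were divided by TMM-adjusted library size and multiplied by its mean over the 5 samples. Of 51 members, 44 passed the filter. Those left out were Adamts13, Mmp1a, Mmp1b, Mmp7, Mmp20, Mmp21 and Mmp24. Members with an unadjusted p under 0.05, those the study names (Mmp3, Mmp9, Mmp12 and Loxl4, in part chosen by it on these libraries), the 2 most abundant of the MMP, ADAMTS and LOX families and all TIMP genes are given in every sample. The members and gene lists were chosen with earlier results of these data known.

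Alternatives were DESeq2 1.42.0, limma 3.58.1 on log2(TPM + 0.1) or log2(TPM + 1), other filters and size factors, robust dispersions, 6 libraries as separate samples with and without a replicate block, and each library left out. The comparison was tested on simulated data, in which many truly changed genes were not called. A gene that is not called here can therefore still differ. Coordinates are from GENCODE M21 (GRCm38), in which 55144 of 55385 genes were found. Promoters are from RefSeq (GRCm38.p6). Member proteins were not analysed here. Python 3.11.15 with numpy 2.4.6, pandas 2.3.3 and, for plots, matplotlib 3.10.9 was used.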

Additional observations from a re-analysis of the deposited data

How the results depend on the processing

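The direction of the difference for the 15 members given sample by sample was kept under every alternative that gave a value, with 5 exceptions in genes whose difference was near 0. Adamts10 was at 0.0503 on the limma log2(TPM + 0.1) scale, with and without the filter, and at 0.0486 on log2(TPM + 1). With each library left out, Mmp14 ran from −1.38 (without DMHCA library 2) to 0.26 (without control replicate 2), and Adamts7 from −0.33 (without control replicate 3) to 0.45 (without control replicate 2). Timp4 was left out by the filter of at least 50 counts in 2 samples. The median log2 fold change of all genes, −0.03 as reported, was 0.16 on log2(TPM + 0.1), 0.11 on log2(TPM + 1) and −0.02 on log2(TPM + 0.1) without the filter, −0.18 in edgeR without the filter and −0.20 in both DESeq2 fits. DESeq2 called 244 genes and 1 member on the 5 samples, with 2 members higher at an unadjusted p under 0.05 (2.35% of all genes) and 4 lower (4.35%). On the 6 libraries it called 846 genes and 3 members, with 1 member higher (4.14% of all genes) and 8 lower (6.21%) at that level and a member median of −0.40. The cause of this gap to edgeR was not tested. edgeR on the 6 libraries without a replicate block had 5 members lower at an unadjusted p under 0.05 (8.03% of all genes), both limma fits on filtered TPM had 1 (2.12% of all genes with the smaller pseudocount, 1.72% with the larger), and edgeR with no filter on low counts called 16 genes, with 3 members higher (2.84% of all genes) and 5 lower (5.1%) at that level.

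The deviations of same-numbered libraries correlated at −0.0909, 0.388 and 0.433, and those of differently numbered libraries at −0.449 to 0.427. With 3 libraries in each group, and DMHCA libraries 1 and 3 nearly identical, these values cannot settle whether the replicate numbers pair the libraries. With the number as a replicate block, edgeR called 0 genes (3207 at an unadjusted p under 0.05), with 1 member, Mmp25, higher (9.1% of all genes) and 4 lower (8.08%) at that level. Leaving out each library in turn, edgeR called 0 genes, and 0 to 2 members were higher (2.16% to 3.34% of all genes) and 2 to 6 lower (1.48% to 6.48%) at an unadjusted p under 0.05. The 6 were found without control 3, where 3.27% of all genes were lower. The member median ran from −0.50 (without DMHCA library 2) to −0.0587 (without control 3). Members without overlap were 3 higher and 3 lower on the TPM scale. With a control left out they were 0 to 7 higher (18.1% to 21.3% of all genes) and 9 to 11 lower (16.7% to 21.5%). Without Mmp14 and Timp2 the ratio of MMP to TIMP TPM was 2.99, 2.30 and 6.49 in control 1, 2 and 3, 3.51 in DMHCA 2 and 2.95 in DMHCA 1 and 3. Where DMHCA library 2 was left out, the lone DMHCA sample was assumed to vary like the controls. Where DMHCA library 1 or 3 was left out, the other stood in for the pair, so no sample was lost. Timp4 and Mmp10 rest on 0 to 81 expected counts per library, which limits the precision of their values.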
